A study of Mus musculus with 28 samples.

Results

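The genes described are 5 genes of CD4 T cells and regulatory T cells in implanted scaffolds: Cd4, Cd28, Ctla4, Icos and Foxp3. They were taken by symbol, 1 assay each, so 5 of the 584 genes and 5 of the 648 assays on the panel. The scaffolds are porous polycaprolactone implants placed subcutaneously in female BALB/c mice, which host tissue and immune cells grow into and which the labels call a synthetic niche. Tumor-bearing mice had been inoculated with 4T1-luc2-tdTomato cells, a marked mouse mammary carcinoma line, and were set against time-matched healthy mice that also carried a scaffold. Samples were taken at day 7 (3 tumor-bearing, 3 healthy), day 14 (8 tumor-bearing, 8 healthy) and day 21 (3 tumor-bearing, 3 healthy), 1 scaffold biopsy per sample, 28 in all. Groups follow the labelled condition at analysis, since a cell line is labelled for every mouse. Age and implantation day were not stated in the labels used here.

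CD4 is the coreceptor that marks helper T cells and most regulatory T cells, and in mice it is also found on some dendritic cells. A T cell that meets its antigen is activated when CD28 binds CD80 or CD86 on the presenting cell. CTLA4 competes for the same ligands and restrains the response, while ICOS appears after activation and binds its own ligand, ICOSL. FOXP3 is the transcription factor that defines regulatory T cells, in which CTLA4 and ICOS are also abundant. Cd28, Ctla4 and Icos lie next to each other, in this order, on mouse chromosome 1. Cd4 lies on chromosome 6 beside Lag3, and Foxp3 lies on chromosome X.

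All 5 genes stood lower in tumor-bearing than in healthy implants in the model estimate of each of the 3 days, and none passed the test across the panel on any day. Averaged over the days, the log2 difference was largest for Ctla4 (-0.89 ± 0.37, SE), Icos (-0.84 ± 0.30) and Foxp3 (-0.61 ± 0.34), and smaller for Cd4 (-0.43 ± 0.23) and Cd28 (-0.27 ± 0.18). Icos was lower in the tumor-bearing mouse in 9 of 9 pairs of mice measured on the same day and the same physical panel. All 5 genes had their highest group mean in healthy implants at day 21, by the widest margins for Ctla4 and Cd4.

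Levels are log2 relative quantities, minus the number of PCR cycles by which a reaction came later than the reference genes of its sample, so a value lower by 1 means 2-fold less transcript. The largest group has 8 mice, and the number of mice limits the precision of every comparison. Of 18144 reactions, 12.4% gave no quantification cycle (Cq), and samples had values for 475 to 587 assays. The fewest were in day 14 tumor-bearing replicate 21 (489) and day 14 healthy replicate 13 (475). In bulk tissue, fewer cells of a type and less RNA per cell cannot be told apart.

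The panel cannot check T cell identity with CD3. Of the 24 genes listed as T cell receptor and lineage genes, 4 were on it: Ptprc, Il7r, Ccr7 and Nfatc3. None of the 10 cytotoxic and NK cell genes was on it. Ptprc, which encodes CD45 on all leukocytes, was measured in 27 of 28 samples. Its level at day 14 averaged 0.39 ± 0.17 in tumor-bearing and 0.37 ± 0.40 in healthy implants (SD, n = 8 each).

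The assays differ in efficiency, so Cq values are not compared between genes. Cd4 had a raw Cq between 22.18 and 24.81, Cd28 between 24.42 and 26.19, and Icos between 24.02 and 27.52. Ctla4 had a raw Cq between 25.47 and 29.59 and Foxp3 between 25.73 and 29.85. Cd28 gave a Cq in all 28 samples. For Cd4, Icos and Foxp3, 13 of 14 tumor-bearing mice and 14 of 14 healthy mice had one, and for Ctla4 13 of 14 tumor-bearing mice and 13 of 14 healthy mice. Fisher's exact test, two-sided, on the share of samples with a Cq gave p = 1.0 for each gene. With 13 or 14 of 14 mice measured in each condition, this test could not have shown a difference. The missing reactions were those of Cd4 and Foxp3 in day 21 tumor-bearing replicate 27, Icos in day 21 tumor-bearing replicate 26, and Ctla4 in day 14 tumor-bearing replicate 17 and day 14 healthy replicate 13. They were left missing.

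**Figure D1:**
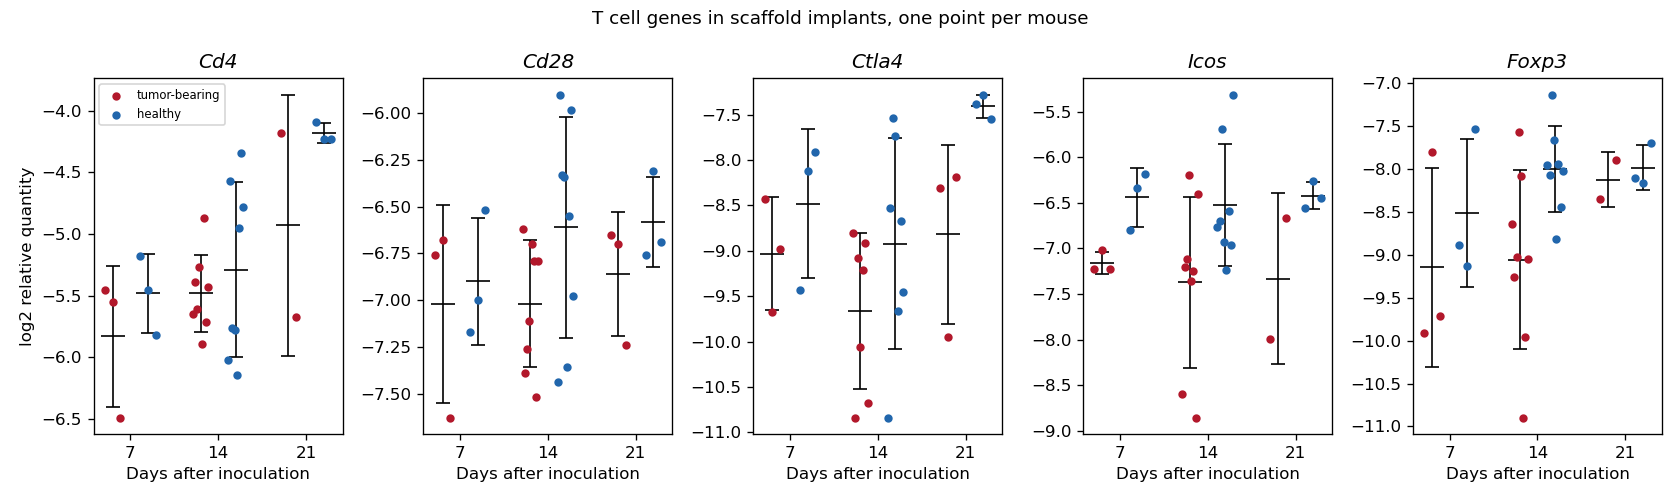
Log2 relative quantity (vertical axis) of the 5 genes in tumor-bearing (red) and healthy (blue) implants at 7, 14 and 21 days. Each point is 1 mouse and the bars are the mean ± SD. Icos points of tumor-bearing mice at day 7 lie between -7.23 and -7.02, below all 3 healthy points, and the healthy Cd4 points at day 21 lie between -4.23 and -4.09.

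Icos, the costimulatory receptor of activated T cells, separated the conditions at day 7. Its levels at day 7 were -7.23, -7.02 and -7.22 in tumor-bearing implants and -6.80, -6.34 and -6.18 in healthy implants. Every tumor-bearing mouse was below every healthy one, which held in this direction for 4.25% of the 565 assays at that day. At day 14 the 8 tumor-bearing values ran from -8.86 through a median of -7.23 to -6.19, and the 8 healthy values from -7.24 through -6.73 to -5.31. The groups overlapped, with 4 tumor-bearing mice below all healthy ones and 2 healthy mice above all tumor-bearing ones. At day 21 the measured Icos levels were -7.99 and -6.66 in tumor-bearing implants, against -6.56, -6.26 and -6.45 in healthy implants. They did not overlap, as was the case in this direction for 8.03% of 573 assays. With only 2 tumor-bearing values, a lack of overlap is reached more easily than with 3.

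In limma, Icos differed by -0.72 ± 0.55 at day 7 (adjusted p = 0.997), by -0.86 ± 0.35 at day 14 (adjusted p = 0.307) and by -0.96 ± 0.61 at day 21 (adjusted p = 0.728). The mean over the days was 0.557-fold, with a 95% interval on the log2 scale of -1.46 to -0.23. Its unadjusted p was 0.00956, rank 21 of 559 assays, and it missed the threshold after adjustment over the panel (adjusted p = 0.249). An exact permutation of the condition labels within days, two-sided, gave p = 0.000383 for Icos, and p = 0.00279 without panels D and G, which each hold a single group. At day 14 alone, the exact permutation p was 0.0597 for Icos. Permutation p-values are for single genes and are not adjusted.

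Ctla4, the inhibitory receptor that shares its ligands with Cd28, was furthest apart at day 21. Its levels there were -8.31, -9.95 and -8.19 in tumor-bearing implants and -7.38, -7.29 and -7.55 in healthy implants. No tumor-bearing mouse reached the healthy range, as was the case in this direction for 8.03% of assays. Day 7 levels were -8.43, -9.67 and -8.98 in tumor-bearing implants and -9.43, -8.12 and -7.91 in healthy implants, and these ranges overlapped. At day 14 the 7 measured tumor-bearing values ran from -10.84 through -9.21 to -8.80, and the 7 healthy ones from -10.84 through -8.67 to -7.54. The lowest Ctla4 level was the same in both conditions, and 4 healthy mice lay above all tumor-bearing ones.

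The Ctla4 difference was -0.54 ± 0.70 at day 7 (adjusted p = 0.997 in limma), -0.72 ± 0.48 at day 14 (adjusted p = 0.650) and -1.41 ± 0.70 at day 21 (adjusted p = 0.614). Without day 21 tumor-bearing replicate 27, which had the lowest Ctla4 value of that day, the day 21 difference was -0.88. With the largest Cq in place of missing reactions, the day 14 difference of Ctla4 was 0.02. The mean over the days, 0.540-fold, had an unadjusted p of 0.0244 and an adjusted p = 0.402 in limma. An exact permutation within days gave p = 0.0127 for Ctla4, and p = 0.0250 without panels D and G. For day 14 alone, the exact permutation p of Ctla4 was 0.200.

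Foxp3, the regulatory T cell factor, differed most at day 14. The 8 tumor-bearing values ran from -10.90 through a median of -9.04 to -7.57, and the 8 healthy values from -8.82 through -8.00 to -7.14. Of the tumor-bearing mice, 5 were below every healthy mouse, and 1 healthy mouse was above every tumor-bearing one. Day 7 levels were -9.91, -7.81 and -9.72 in tumor-bearing implants and -8.89, -9.13 and -7.54 in healthy implants. Within each condition at day 7, 1 mouse was more than 1 log2 unit above the other two. At day 21 the levels were -8.35 and -7.90 in tumor-bearing implants, against -8.11, -8.17 and -7.70 in healthy implants, and the conditions overlapped.

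At day 14 Foxp3 stood at 0.477-fold in limma, a log2 difference of -1.07 ± 0.40 with a 95% interval of -1.90 to -0.23. The unadjusted p was 0.0143 and the adjusted p was 0.243. The exact permutation p for Foxp3 at day 14 was 0.0180, and 0.114 in the 4 tumor-bearing and 4 healthy mice outside panels D and G, where the difference was -1.19. Without tumor-bearing replicate 20, the lowest, the limma difference was -0.78. Foxp3 differed by -0.62 ± 0.63 at day 7 and -0.13 ± 0.70 at day 21 (adjusted p = 0.997 and 0.995 in limma). Its mean over the days had an unadjusted p of 0.0881 in limma. The exact permutation within days gave p = 0.0581 for Foxp3, and p = 0.0799 without panels D and G.

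Cd4 levels of tumor-bearing and healthy implants overlapped on every day. At day 7 Cd4 stood at -5.45, -5.55 and -6.49 in tumor-bearing and at -5.18, -5.45 and -5.82 in healthy implants. At day 14 the tumor-bearing values ran from -5.89 through -5.52 to -4.87 and the healthy ones from -6.14 through -5.35 to -4.34. The spread was wider in healthy mice at that day (SD 0.71) than in tumor-bearing mice (SD 0.31), a difference that was not tested. At day 21 the tumor-bearing values were -4.18 and -5.67, against -4.09, -4.23 and -4.23 in healthy implants, so 1 tumor-bearing mouse lay within the healthy range and 1 below it. The limma differences were -0.34 ± 0.42, -0.21 ± 0.27 and -0.73 ± 0.47 at days 7, 14 and 21 (adjusted p = 0.997, 0.803 and 0.728). The day 14 difference of Cd4 was 0.05 when panels D and G were fitted by themselves, and -0.02 without the samples with the fewest values (tumor-bearing replicate 21 and healthy replicate 13).

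Cd28, the costimulatory receptor that resting T cells already carry, was the steadiest of the 5. At day 7 its levels were -6.76, -6.68 and -7.63 in tumor-bearing and -7.17, -7.00 and -6.52 in healthy implants. At day 14 they ran from -7.52 through -6.95 to -6.62 in tumor-bearing mice and from -7.44 through -6.45 to -5.90 in healthy mice, 5 of which were above all tumor-bearing mice. At day 21 they were -6.65, -6.70 and -7.24 in tumor-bearing and -6.76, -6.31 and -6.69 in healthy implants. Cd28 differed by -0.13 ± 0.36, -0.39 ± 0.23 and -0.28 ± 0.36 in limma (adjusted p = 0.997, 0.585 and 0.960). The day 7 value turned to 0.18 without tumor-bearing replicate 6 and to 0.09 without healthy replicate 3. The exact permutation p within days was 0.0910 for Cd28 and 0.0807 for Cd4.

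**Figure D2:**
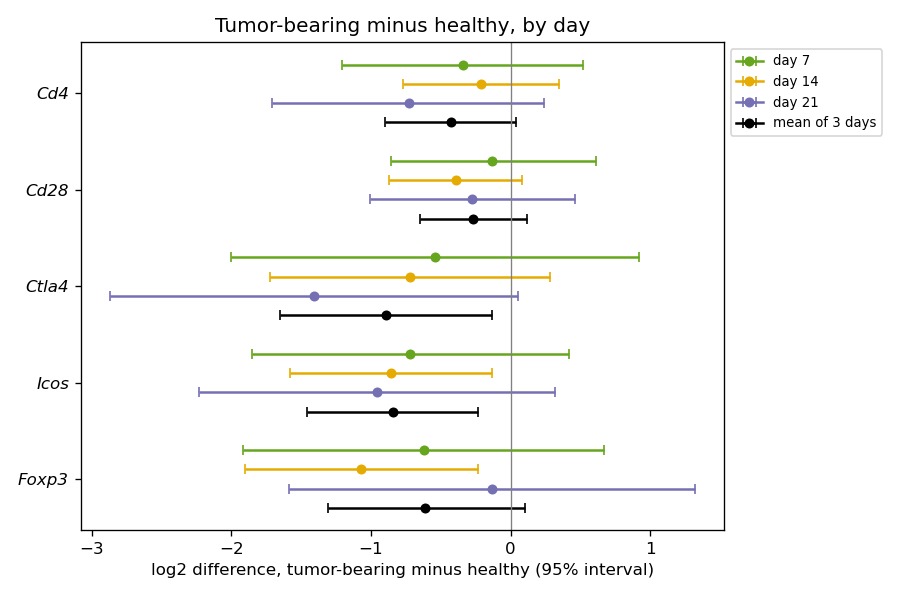
Log2 difference, tumor-bearing minus healthy, with its 95% interval from limma (horizontal axis), for each gene at day 7 (green), day 14 (yellow), day 21 (purple) and as the mean of the 3 days (black). All 20 points lie below 0, and the intervals of Icos and Foxp3 at day 14 and of Icos and Ctla4 for the mean end below 0 before adjustment over the panel.

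Read against the panel, 0 of the 5 genes passed at any day or for the mean. Over the whole panel, limma called 0 of 565 assays at day 7, 2.38% of 588 at day 14, 1.22% of 573 at day 21 and 2.50% of 559 for the mean. At an unadjusted p under 0.05, 2 of the 5 (Icos and Foxp3) were below healthy at day 14, where 6.97% of all assays were, and 2 (Icos and Ctla4) for the mean, where 4.83% were. The median log2 difference of the 5 genes for days 7, 14 and 21 was -0.54, -0.72 and -0.73, beside 0.03, -0.08 and 0.00 over all assays. With 5 genes, estimates below 0 were found for 5 of 5 at each day, and over all assays for 46.0%, 62.6% and 50.1%. At days 7 and 21, 0 of the 5 had an unadjusted p under 0.05 in limma, beside 2.12% and 9.08% of all assays in either direction. The effect did not differ detectably between days: the differences between days ranged from -0.87 (Ctla4, day 21 minus day 7) to 0.93 (Foxp3, day 21 minus day 14), with adjusted p-values of at least 0.914 in limma, in comparisons where 0 assays passed.

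The labels place 10 tumor-bearing mice on a panel with a healthy mouse of the same day. Icos was lower in the tumor-bearing mouse in 9 of 9 such pairs, with differences between -1.90 and -0.12 overall and between -1.03 and -0.44 at day 7. Of the 178 assays with 9 measured pairs, 0.562% were lower in all 9, which is Icos itself. Assays measured in all 10 pairs are not part of these shares, and among them Ccr7 was lower in 9 of 10. Ctla4 was lower in 8 of 9 pairs, a count reached by 2.25% of those assays, and the pair that went the other way was at day 7. Cd4 and Foxp3 were lower in 7 of 9 pairs each, a count that 14.6% of those assays reached. Cd28 was lower in 5 of 10.

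**Figure D3:**
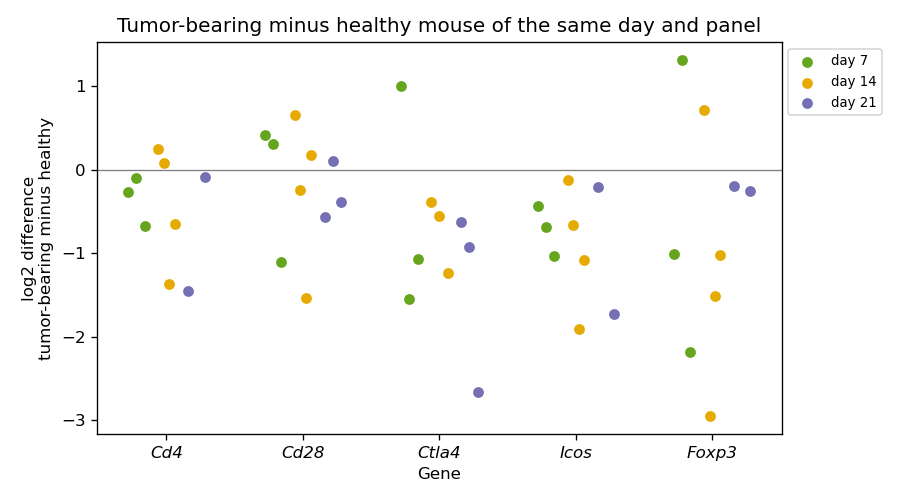
Log2 difference, tumor-bearing minus healthy (vertical axis), within pairs of mice of the same day and the same panel, for the 5 genes. Each point is 1 pair, coloured by day. All 9 Icos points lie below 0, from -1.90 to -0.12, while Foxp3 points range from -2.95 to 1.31.

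Over time, all 5 genes had their highest group mean in healthy implants at day 21. The next group lay 0.75 lower for Cd4 and 1.07 lower for Ctla4. For Icos, Foxp3 and Cd28 it lay only 0.01, 0.02 and 0.03 lower. The Cd4 mean in healthy implants was -5.48 ± 0.32 (SD, n = 3) at day 7 and -5.29 ± 0.71 (n = 8) at day 14, and it was -4.18 ± 0.08 (n = 3) at day 21. All 3 healthy mice at day 21 were above all 11 healthy mice of the earlier days. Day 21 lay above day 14 without overlap in 3.98% of 578 assays, and above day 7 in 17.5% of 570. The panels differed between days, and A, B and D hold no day 21 sample. On panels E and F, healthy Cd4 levels were -4.34 and -4.78 at day 14, and -4.09 and -4.23 at day 21. On panel C they were -5.82 at day 7 and -4.23 at day 21. In limma Cd4 was 1.10 ± 0.36 higher at day 21 than at day 14 (unadjusted p 0.00534, adjusted p = 0.123) and 1.28 ± 0.43 higher than at day 7 (unadjusted p 0.00637, adjusted p = 0.270), where limma called 0.346% and 0 of the assays. At an unadjusted p under 0.05 these shares were 15.9% and 10.0%. The second of these passed when only the day 7 and day 21 healthy groups were fitted (1.30, adjusted p = 0.0360), a fit in which limma called 2.28% of 570 assays. In tumor-bearing implants the Cd4 means were -5.83 ± 0.57 (n = 3), -5.48 ± 0.31 (n = 8) and -4.93 ± 1.06 (n = 2) at days 7, 14 and 21.

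Ctla4 in healthy implants averaged -8.48 ± 0.82 (SD, n = 3) on day 7, -8.92 ± 1.16 (n = 7) on day 14 and -7.41 ± 0.13 (n = 3) on day 21. The day 21 minus day 14 difference was 1.51 ± 0.61 (unadjusted p 0.0219, adjusted p = 0.203 in limma). Healthy day 21 was the highest of the 6 groups for Ctla4, above the next group by more than the larger SD of the pair. No other neighbouring groups in the order of mean levels differed by more than their larger SD, for any of the 5 genes. After adjustment, 0 of the 5 genes passed in any change between days. Among all assays, 0.175%, 0 and 0.529% passed in tumor-bearing mice for day 14 minus day 7, day 21 minus day 14 and day 21 minus day 7, and in healthy mice 0 for day 14 minus day 7.

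The ligands and related receptors were taken from lists of T cell genes. Cd80 and Cd86, the ligands of CD28 and CTLA4, differed by 0.06 ± 0.14 and -0.04 ± 0.30 at day 14 (adjusted p = 0.907 and 0.972 in limma), and Icosl, the ICOS ligand, by -0.41 ± 0.20 (adjusted p = 0.442). Of the 18 other costimulatory or inhibitory genes tested at day 14, 0 passed in limma. Their estimates were below 0 for 14, with a median of -0.20 beside -0.08 for all assays. At an unadjusted p under 0.05, 2 of the 18 differed, Tnfsf14 higher and Icosl lower. Of all assays, 6.97% were lower at that level. The smallest p was that of Tnfsf14, a ligand of the TNF family that costimulates T cells, at 0.72 ± 0.29 (adjusted p = 0.298). Tnfrsf4, the OX40 receptor of activated and regulatory T cells, stood at -0.81 ± 0.40 (adjusted p = 0.50) and was lower in 7 of 9 panel-matched pairs. In such pairs Cd80 and Icosl were lower in the tumor-bearing mouse in 6 of 10 each and Cd86 in 2 of 10. For the mean over the days the smallest p of that list was that of Tnfrsf18, the GITR receptor, at -0.68 ± 0.24 (adjusted p = 0.249).

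Other regulatory T cell genes gave 0 of 13 assays past the threshold in limma at day 14 and 0 of 11 for the mean. Unadjusted p-values under 0.05 numbered 0 at day 14 and 1 for the mean (Tnfrsf18, lower), where 4.83% of all assays were lower at that level. Ccr4, a chemokine receptor found on regulatory and other helper T cells, had the smallest p at day 14, at -0.84 ± 0.47 (adjusted p = 0.550). Of the helper T cell regulators and cytokines, 0 of 21 assays passed at day 14. Both Ccr3 assays, 2 in all for 1 gene, were lower at an unadjusted p under 0.05, as were 6.97% of all assays. The first stood at -0.53 ± 0.22 (adjusted p = 0.298). For the mean 0 of 18 passed and 2 were lower at an unadjusted p under 0.05, beside 4.83% of all assays. The smallest p was that of Stat4, which transmits IL-12 signals, at -0.56 ± 0.18 (adjusted p = 0.152). Both lists have several assays for some genes, and their medians for the mean were -0.21 and -0.24, beside -0.05 over all assays.

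Genes that passed lay among the T cell attracting chemokines and the lineage list. Ccl22, which attracts CCR4-bearing T cells, fell by 0.69 ± 0.15 for the mean over the days (adjusted p = 0.00711 in limma). Ccl5, which attracts effector T cells and monocytes, fell by 0.71 ± 0.16 (adjusted p = 0.0141). So 2 of 10 assays for 9 genes passed, all lower, beside 2.50% of all assays in either direction. In its other assay, Ccl5 had a difference of -0.55 ± 0.18 (adjusted p = 0.186). Ccr7, the homing receptor of naive T cells and of migrating dendritic cells, fell by 0.81 ± 0.15 for the mean (adjusted p = 0.00252), 1 of 4 lineage genes. The other lineage genes on the panel did not fall: Il7r stood at 0.28 ± 0.18, Nfatc3 at 0.03 ± 0.12 and Ptprc at 0.03 ± 0.12. None of them passed the threshold, and most of the 24 genes of that list were not measured. At day 14, 0 of 10 chemokine assays passed, with Ccl22 at -0.53 ± 0.17 (adjusted p = 0.155), and Ccr7 stood at -0.64 ± 0.19 (adjusted p = 0.0792). At day 21 Ccr7 fell by 1.18 ± 0.30 (adjusted p = 0.0437 in limma), while 0 of 10 chemokine assays passed, with Ccl22 at -1.14 ± 0.30 (adjusted p = 0.0730). Over all assays, 2.38% passed at day 14 and 1.22% at day 21.

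Among markers of other cells, only those of neutrophils passed the threshold beside these differences. Neutrophil genes had higher estimates in 9 of 9 assays at day 14, at day 21 and for the mean. Of these, 9, 4 and 8 assays passed the threshold in limma, beside 2.38%, 1.22% and 2.50% of all assays in either direction. The summed linear level of the neutrophil genes counts a missing reaction as 0. At day 14 it ran from 1.21 to 9.92 in tumor-bearing and from 0.432 to 2.17 in healthy implants. At day 21 the neutrophil sums were 8.04 to 14.8 in tumor-bearing and 3.00 to 4.79 in healthy implants. The summed level of 5 macrophage and dendritic cell genes at day 14 was 3.06 to 5.81 in tumor-bearing and 3.52 to 5.62 in healthy implants, with 0 of 5 past the threshold. Xcr1, of cross-presenting dendritic cells, had the smallest p, at -0.38 ± 0.21 (adjusted p = 0.544). Of the B cell genes, Cr2 stood at -0.86 ± 0.58 at day 14 (unadjusted p 0.155, adjusted p = 0.650). For the mean over the days Cr2 stood at -1.02 ± 0.46 (unadjusted p 0.0367, adjusted p = 0.467 in limma). At an unadjusted p under 0.05, 4.83% of all assays were lower for the mean. The other B cell gene, Blnk, stood at -0.09 ± 0.53 for the mean. The part of other cells in the T cell gene levels was not tested. Levels relative to Ptprc in the same sample were an alternative chosen after seeing the data. On that scale the Icos mean was -0.91 (adjusted p = 0.247), against -0.84 without that division. The Foxp3 difference at day 14 was -1.08 (adjusted p = 0.293), against -1.07. The Foxp3 mean shrank from -0.61 to -0.49 and its day 7 difference from -0.62 to -0.36. Other differences of the 5 genes moved in either direction. Day 7 tumor-bearing replicate 4 had no Ptprc value and so had no level on that scale. The day 7 differences and the means on that scale therefore also leave out this mouse. Its Foxp3 level, -9.91, was the lowest of day 7, so the Foxp3 changes cannot be set down to the division alone.

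Within groups, no pair of the 5 genes was shown to vary together from mouse to mouse. Deviations from the group means gave Pearson correlations between -0.20 (Cd4 and Foxp3, n = 27) and 0.54 (Cd4 and Cd28, n = 27), and none of 15 relations, 5 of them with Ptprc, passed Benjamini-Hochberg adjustment. Cd4 and Cd28 had a permutation p of 0.0293 (adjusted 0.440) and a Spearman correlation of 0.37 (permutation p 0.115, adjusted 0.430), and r was 0.39 without the 2 mice farthest from the median. The neighbours Ctla4 and Icos had r = -0.01 (n = 25) and Cd28 and Ctla4 r = 0.44 (n = 26, permutation p 0.0663, adjusted 0.498). Icos and Foxp3 had r = 0.38 (n = 26, permutation p 0.111, adjusted 0.556).

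Over all samples, which share the group differences and the panels, the genes most like each member among 549 assays differed only in part between members. Ccr7 was named for both Ctla4 and Cd28, and Tnfrsf4 for both Icos and Foxp3. For Cd4 they were Pla2g2d (r = 0.84, n = 27), Clec7a (0.81, n = 25) and Ccl19 (0.76, n = 24), beside a median r of 0.11 over all assays. Icos was most like Tnfrsf4 (0.76), Procr (0.69) and Ccr9 (0.68), each over 27 samples. Ctla4 was most like Stat4 (0.75), Cxcl1 (0.72) and Ccr7 (0.72), each over 26. Cd28 followed Il17rb (0.62, n = 25), Slurp1 (0.62, n = 24) and Ccr7 (0.61, n = 28), and Foxp3 followed Masp2 (0.57), Icos (0.55) and Tnfrsf4 (0.53), each over 26. These correlations are descriptions, and Cd28 and Foxp3 had weaker ones than the other three.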

How the data were processed

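Total RNA of scaffold biopsies was reverse transcribed and measured by RT-qPCR with TaqMan assays of the OpenArray Mouse Inflammation Panel, per the labels' protocols. The authors deposited raw quantification cycles (Cq, a score whose lower values mean more template) and normalized values, which are a ratio on a linear scale, per the file headers. From the values, the ratio is 2 to the power of minus the Cq less the mean Cq of 5 reference assays, within 3.0e-05 cycles. Their deposited table of fold changes equals the ratio of geometric means and was only compared. The Cq-calling software is not given in the sources used here.

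The log2 of the deposited ratio was fitted in limma 3.58.1 (R 4.3.3, lmFit and eBayes), with 1 mean per group over all 28 samples and the panel as a random block (duplicateCorrelation, statmod 1.5.0, correlation 0.054). The labels name 7 panels, called A to G here; D holds 4 day 14 healthy and G 4 day 14 tumor-bearing samples. An assay was tested where 50% of a group had a value (609 assays) and each group of the contrast had 2. P-values of all 13 contrasts were adjusted by Benjamini-Hochberg over all assays tested, with a threshold of 0.05; ± after a difference is the standard error. Each adjusted p of a gene is from limma unless another test is named. Permutation tests were exact, with 100000 resamples for correlations. The fit was tested on simulated data. The design of the series counts each sample as a biological replicate; replicate numbers run from 1 to 28.

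The 5 genes and the 10 gene lists were chosen with earlier results of these data known. Of each list, genes past the threshold are named, or else the gene with the smallest p, for day 14 and the mean, and of each member the 3 genes with the highest correlation among assays with a value in at least 24 samples. Cd80, Cd86, Icosl and Tnfrsf4, the second Ccl5 assay, the pairs of Ccr7 and the day 21 values of Ccr7 and Ccl22 were added after their values were seen.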

Additional observations from a re-analysis of the deposited data

How the results depend on the processing

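None of the 5 genes passed in the tumor-bearing minus healthy contrasts under any alternative run: no panel block or a fixed one, without panels D and G, another filter, centring or variance prior, the largest Cq in place of missing reactions, and each mouse left out. The counts of genes past the threshold without 1 mouse were 0 to 0 in all 13 contrasts. In healthy mice, day 21 minus day 7 gave 1 gene, Cd4, when only its groups were fitted, where 13 of all 570 assays passed, against 0. The day 14 permutation gave 0 genes without panels D and G, against 1, where 4 mice per condition remain. Differences turned sign for Cd28 at day 7 (-0.29 to 0.18 without 1 mouse in turn; 0.18 without tumor-bearing replicate 6 and 0.09 without healthy replicate 3), for Cd4 at day 14 on panels D and G only (0.05, chosen after seeing the data) and for Ctla4 at day 14 (0.02) once the largest Cq stood in for missing reactions. That setting moved the day 21 differences of Cd4, Icos and Foxp3 to -6.18, -5.55 and -4.50, each through 1 filled-in reaction. Without each mouse in turn, the mean over the days ranged from -0.90 to -0.76 for Icos, -1.04 to -0.71 for Ctla4 and -0.85 to -0.44 for Foxp3. At day 7 the same runs gave -0.55 to -0.03 for Cd4, -1.0 to -0.19 for Ctla4, -1.34 to -0.14 for Foxp3 and -0.87 to -0.60 for Icos. Over all assays, calls for the mean ranged from 4 to 15, at day 14 from 0 to 16 and at day 21 from 0 to 9. Replicate numbers could not serve as a block, since the groups share none; mice were paired by day and panel instead.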
